A study of Mus musculus with 6 samples.

Results

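Imprinted genes are read mainly from either the maternal or the paternal copy, and many of them control growth before birth. The imprinted growth genes described here are the neighbours H19 and Igf2 together with Igf2r, Dlk1, Meg3, Mest, Cdkn1c, Grb10, Peg3 and Plagl1. These are 10 of the 29072 genes in the deposited table. They were chosen by name, with the levels of H19 and Igf2 in these libraries already known. Their differences between the groups are therefore given as a description, with errors and no p-value. Each gene is represented by 1 transcript row, a RefSeq row in every case, and by its highest row where there were several.

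The tissue sampled was interscapular brown fat, an adipose depot between the shoulder blades that produces heat. The knockout group (3 libraries) consists of mice lacking UCP1, written UCP1(-/-), the mitochondrial protein that lets brown fat turn fuel into heat. The wildtype group (3 libraries) consists of C57BL/6J mice, and the knockout was kept on that same background. The sources used here do not give age, sex, housing temperature or the design of the knockout allele. The labels do not state that the 3 libraries of a group are separate animals, so errors and p-values measure the spread between these libraries, which may be technical.

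Values are RPKM, a read density that corrects for the length of the transcript and the depth of the library. The spacing of low values implied 15800000 to 18000000 reads in the knockout libraries and 16200000 to 16300000 in the wildtype libraries, so depth was similar throughout. Ucp1 itself was listed at 375, 389 and 372 RPKM in knockout replicates 1, 2 and 3, and at 3096, 1714 and 3151 RPKM in wildtype replicates 1, 2 and 3. All 13 brown adipocyte markers were detected in both groups, of which 2 fell, 1 rose and 10 did not pass in limma. The share called was 23.1%, against 7.75% of all tested genes. It includes Ucp1, the targeted gene, whose fall belongs to the genotype. Beside Ucp1, Prdm16, a transcription factor that keeps brown fat cells brown, fell by 0.49 on the log2 scale (SE 0.11, limma adjusted p = 0.0382). Elovl3, a fatty acid elongase of brown fat, rose by 0.92 (SE 0.22, limma adjusted p = 0.0403). The call of Prdm16 was lost in 6 of 12 alternatives and that of Elovl3 in 7 of 13. Markers of skeletal muscle fibres also differed between the groups, and all 20 were higher in the knockout. Their summed level was 1770 to 2030 RPKM in the knockout against 58.7 to 290 RPKM in the wildtype libraries. Neb, Ttn, Myh2, Myh7, Tnnt1, Tnni1 and Ryr1 had wildtype means under 1 RPKM, the level for testing. They were tested only because of their knockout means.

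H19 is a long noncoding RNA made from the maternal chromosome, and Igf2, insulin-like growth factor 2, is a fetal growth factor made from the paternal chromosome. They share enhancers, and an imprinting control region between them binds the insulator protein CTCF on the maternal copy, which keeps those enhancers away from Igf2. In the mouse both are abundant before birth and are turned down in most tissues afterwards, while skeletal muscle keeps making H19. The other members act on the same growth axis or belong to other imprinted domains: a receptor that removes IGF2, an adaptor that restrains insulin and IGF signalling, a cell cycle inhibitor, zinc-finger factors and a second noncoding RNA.

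H19 and Igf2 also carry microRNAs, shown here because each lies inside the gene whose level is reported. The sequences are the mature RNAs in RefSeq (GRCm38.p6), written 5′ to 3′ with the seed, bases 2 to 8, in capitals.

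mmu-miR-675-5p: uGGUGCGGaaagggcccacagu
mmu-miR-675-3p: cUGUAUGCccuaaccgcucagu
mmu-miR-483-5p: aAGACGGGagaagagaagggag
mmu-miR-483-3p: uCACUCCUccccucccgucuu
mmu-miR-335-5p: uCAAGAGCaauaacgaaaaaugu

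Both arms of miR-675 lie in H19 on the minus strand, at chr7:142577112-142577133 for the 5p arm and chr7:142577078-142577099 for the 3p arm. Both arms of miR-483 lie within Igf2 on the minus strand, at chr7:142654968-142654989 and chr7:142654932-142654952. miR-335 lies within Mest on the plus strand, with its 5p arm at chr6:30741314-30741336. In all, 9 mature microRNAs lie inside 4 of the members, and none of the 9 shares its seed with another of the 1738 mature mouse sequences in that table. None has a row in the deposited table, so the values below are those of the long host transcripts and give no level for a microRNA.

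Also shown is the region just before the start of the Igf2 transcript used here, because Igf2 has 4 promoters in the RefSeq table and the row reported belongs to this start. It covers the 250 bases before the start, at chr7:142657497-142657746 on the minus strand (RefSeq, GRCm38.p6). Capitals mark GGGCGG, the GC box.

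Igf2 promoter: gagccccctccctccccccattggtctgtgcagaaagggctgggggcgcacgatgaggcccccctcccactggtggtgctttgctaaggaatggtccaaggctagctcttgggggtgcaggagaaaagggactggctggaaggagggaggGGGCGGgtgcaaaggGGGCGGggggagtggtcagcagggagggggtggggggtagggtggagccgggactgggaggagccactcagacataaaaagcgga

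GGGCGG, searched on both strands, occurs 2 times in this window. At least 1 match is present in 32.7% of the 32851 promoter windows of the same length, and at least 2 in 16.7%. CCAAT, searched in the same way, occurs 1 time here and is found in 33.8% of windows. TATAAA has no match here and is found in 12.4% of windows. These are matches of letters only. Of the 10 members, 8 have a promoter in that table.

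H19 was the member with the largest difference between the groups. It stood at 20.1, 15.1 and 14.3 RPKM in knockout replicates 1, 2 and 3, and at 1.90, 2.76 and 0.988 RPKM in wildtype replicates 1, 2 and 3. Every knockout library lay above every wildtype library, and wildtype replicate 3 was the lowest of all 6. The means were 16.5 ± 3.11 and 1.88 ± 0.884 RPKM (SD, n = 3 each), an 8.78-fold higher level in the knockout. On the log2(RPKM + 1) scale used for all log2 changes here, the difference was 2.64 with a standard error of 0.22. Leaving out any single library left the fold between 7.09, without wildtype replicate 3, and 11.4, without wildtype replicate 2. H19 has 4 rows in the table, and in all 4 the groups did not overlap. The read numbers behind H19 could not be recovered, because the length the authors used for its rows is not given.

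Igf2 differed in the opposite direction. It stood at 2.42, 2.30 and 2.39 RPKM in knockout replicates 1, 2 and 3, and at 4.59, 3.30 and 5.20 RPKM in wildtype replicates 1, 2 and 3. The knockout libraries lay close together and below every wildtype library, of which replicate 2 was the lowest. The means were 2.37 ± 0.0615 RPKM in the knockout and 4.37 ± 0.968 RPKM in the wildtype (SD, n = 3 each), so wildtype was 1.84-fold higher. The log2 change was -0.65 with a standard error of 0.13. All 11 rows of Igf2 were lower in the knockout, and in 8 of the 11 the groups did not overlap. An Ensembl row of 3970 bases corresponded to 143, 135 and 160 reads in knockout replicates 1, 2 and 3, and to 277, 198 and 313 reads in wildtype replicates 1, 2 and 3. The rows of a gene share reads and are not independent measurements.

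**Figure D1:**
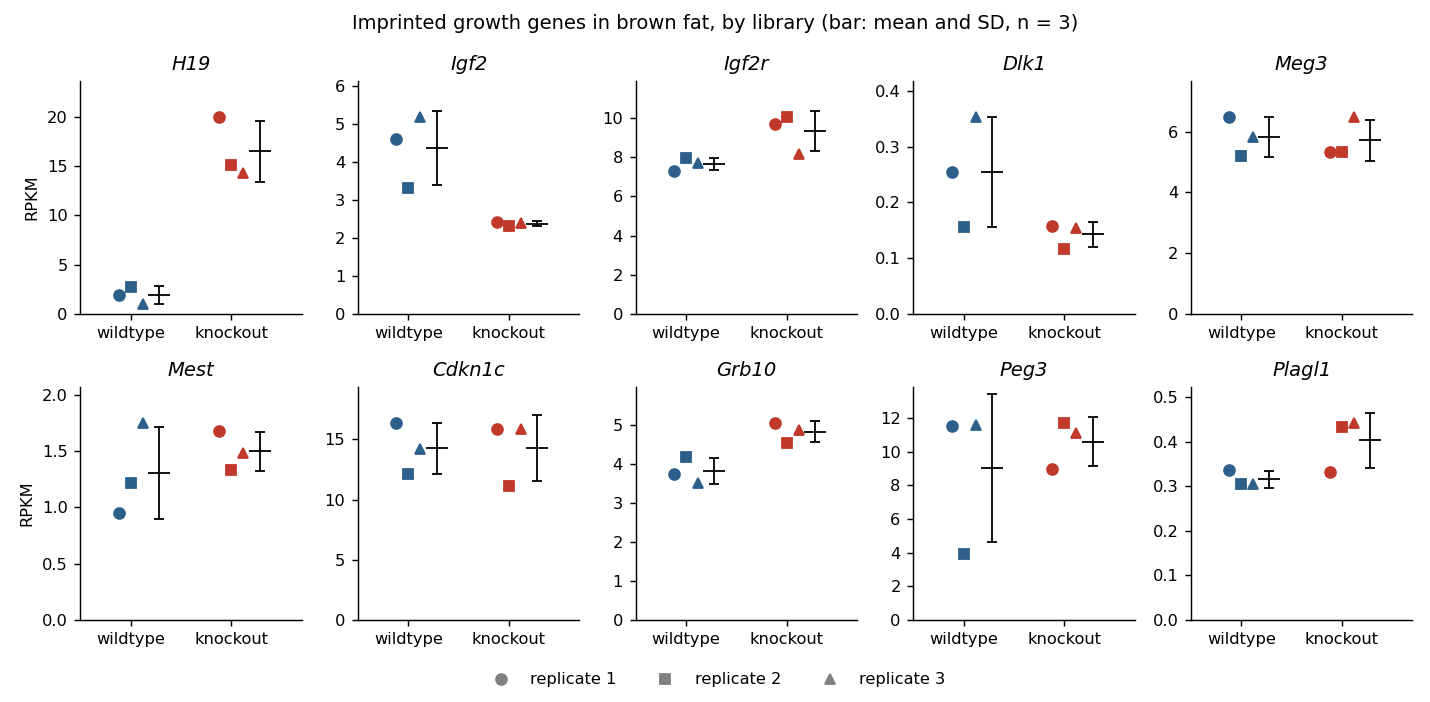
RPKM of the 10 members in each library, with wildtype in blue and knockout in red, marker shape giving the replicate number, and the black bar the group mean and SD (n = 3); each panel has its own axis from 0. H19 is the panel with the widest gap, 14.3 to 20.1 RPKM in the knockout against 0.988 to 2.76 RPKM in the wildtype, while Igf2 lies lower in the knockout at 2.30 to 2.42 RPKM.

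H19 and Igf2 were also the members past the threshold of the fit across all genes, limma with Benjamini-Hochberg adjusted p under 0.05. Of the 10 members, 8 reached a mean of 1 RPKM in either group and were tested. Of these, 1 was called higher (H19), 1 was called lower (Igf2) and 6 did not pass. The background was 7.75% of the 11541 genes tested called in either direction, 7.00% higher and 0.745% lower. Since the members were chosen with this comparison known, nothing is read from the count. The call of Igf2 did not hold without knockout replicate 1, 2 or 3 or without wildtype replicate 1, nor with no filter on low values, although its direction was the same in each. The call of H19 held in all 13 alternatives.

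The groups did not overlap for 4 of the 8 tested members, with the knockout above for H19, Igf2r and Grb10 and below for Igf2. Among all tested genes the groups did not overlap for 29.4%, with the knockout above for 24.3% and below for 5.14%. The median log2 change of the 8 tested members was 0.19, against 0.076 over all tested genes.

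Igf2r, the mannose 6-phosphate receptor that carries IGF2 to lysosomes for breakdown, is made from the maternal copy in most mouse tissues. It was at 9.73, 10.1 and 8.19 RPKM in knockout replicates 1, 2 and 3, and at 7.30, 7.95 and 7.72 RPKM in wildtype replicates 1, 2 and 3. The knockout libraries were all above the wildtype ones, but the lowest knockout value, in replicate 3, was close to the highest wildtype value. The means were 9.34 ± 1.01 and 7.66 ± 0.328 RPKM (SD, n = 3 each), and the log2 change of 0.25 with a standard error of 0.090 did not pass the threshold. All 4 rows of Igf2r had the knockout above the wildtype. Airn, the noncoding RNA that overlaps Igf2r on the other strand, was at 2.83 ± 0.250 RPKM in the knockout and 3.19 ± 0.598 RPKM in the wildtype (SD, n = 3 each). Whether reads were counted by strand is not stated, so reads of overlapping genes such as these cannot be told apart.

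Grb10, an adaptor that binds the insulin and IGF1 receptors and dampens their signalling, was also higher in every knockout library. It was at 5.07, 4.55 and 4.89 RPKM in knockout replicates 1, 2 and 3, and at 3.75, 4.19 and 3.52 RPKM in wildtype replicates 1, 2 and 3. The groups did not overlap, and the spread within each was small. The means were 4.84 ± 0.265 and 3.82 ± 0.338 RPKM (SD, n = 3 each), with a log2 change of 0.28 and a standard error of 0.085, which did not pass. Of its 17 rows, 16 were higher in the knockout, and the groups did not overlap in 11.

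Dlk1, delta-like 1 or preadipocyte factor 1, is a membrane and shed protein that restrains fat cell differentiation. It was near the lower limit of the table, at 0.158, 0.117 and 0.153 RPKM in knockout replicates 1, 2 and 3, and at 0.254, 0.156 and 0.354 RPKM in wildtype replicates 1, 2 and 3. The groups overlapped because wildtype replicate 2 lay below knockout replicate 1. An Ensembl row of 1703 bases held 10, 8 and 12 reads in the knockout and 18, 11 and 23 reads in the wildtype, so each value rests on few reads. All 14 rows of Dlk1 were lower in the knockout, and in 3 of them the groups did not overlap. With means under 1 RPKM, Dlk1 was not tested.

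Meg3, the maternally expressed noncoding RNA of the Dlk1 domain, overlapped between the groups. Its levels were 5.32, 5.33 and 6.49 RPKM in knockout replicates 1, 2 and 3, and 6.50, 5.18 and 5.82 RPKM in wildtype replicates 1, 2 and 3. The lowest value and the highest value were both in wildtype libraries. The log2 change was -0.03 with a standard error of 0.10, and its sign turned in 3 of 13 alternatives, each of which left out a library. Among its 21 rows, 4 were higher and 17 lower in the knockout. Rian, another noncoding RNA of the domain, was at 1.48 ± 0.218 RPKM in the knockout and 1.54 ± 0.180 RPKM in the wildtype (SD, n = 3 each).

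Mest, a paternally expressed enzyme-like protein linked to fat cell size and the host of miR-335, was at 1.67, 1.33 and 1.49 RPKM in knockout replicates 1, 2 and 3, and at 0.949, 1.21 and 1.75 RPKM in wildtype replicates 1, 2 and 3. Wildtype libraries held both the lowest and the highest value. The means were 1.50 ± 0.173 and 1.30 ± 0.410 RPKM (SD, n = 3 each), and the log2 change was 0.13 with a standard error of 0.14. Another RefSeq row of 2561 bases corresponded to 65, 51 and 67 reads in the knockout and 38, 47 and 70 reads in the wildtype.

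Cdkn1c, the cyclin-dependent kinase inhibitor p57, had the highest wildtype level of the members and the smallest log2 change. It was at 15.9, 11.1 and 15.9 RPKM in knockout replicates 1, 2 and 3, and at 16.4, 12.2 and 14.2 RPKM in wildtype replicates 1, 2 and 3. Replicate 2 was the lowest in both groups. The means were 14.3 ± 2.73 and 14.3 ± 2.12 RPKM (SD, n = 3 each), and the log2 change was -0.0046 with a standard error of 0.15.

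Peg3, a paternally expressed zinc-finger protein, was set apart by a single library. It was at 8.98, 11.7 and 11.1 RPKM in knockout replicates 1, 2 and 3, and at 11.5, 3.91 and 11.6 RPKM in wildtype replicates 1, 2 and 3. Wildtype replicate 2 was about a factor of 3 below the other wildtype libraries. An Ensembl row of Peg3 showed the same gap in reads, with 1859, 616 and 1811 in the wildtype and 1395, 1704 and 2036 in the knockout. The log2 change of 0.33 with a standard error of 0.33 turned to -0.12 without wildtype replicate 2. Of all tested genes, 49 (0.425%) had a wildtype replicate 2 value at least 2 times below those of both other wildtype libraries.

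Plagl1, a zinc-finger factor that regulates several other imprinted genes, was at 0.332, 0.434 and 0.443 RPKM in knockout replicates 1, 2 and 3, and at 0.337, 0.304 and 0.304 RPKM in wildtype replicates 1, 2 and 3. Knockout replicate 1 fell inside the wildtype range, and the gene was below the level at which genes were tested. The row used, of 5260 bases, held 28, 36 and 42 reads in the knockout and 29, 26 and 26 reads in the wildtype. Of its 24 rows, 7 were listed at 0 in every library.

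**Figure D2:**
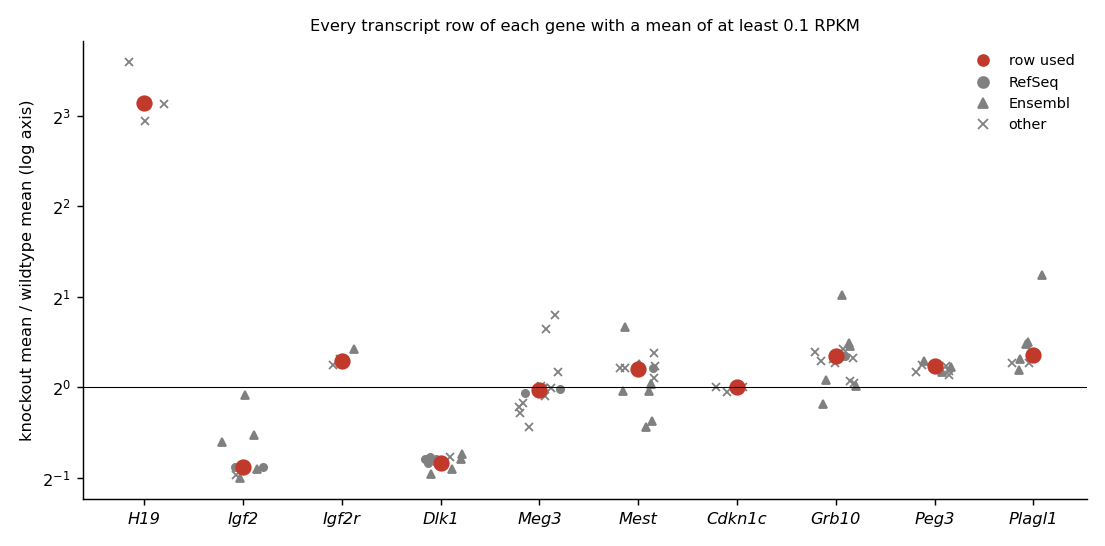
Ratio of the knockout mean to the wildtype mean, on a log axis, for each of the 104 transcript rows of the members with a mean of at least 0.1 RPKM; red marks the row used for the gene, grey circles other RefSeq rows, triangles Ensembl rows and crosses other rows. All H19 rows lie far above the line of equal means and all Igf2 and Dlk1 rows lie below it, while rows of Meg3 and Mest fall on both sides.

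RPKM is scaled to transcript length, so levels can also be set in order across the members. In the wildtype libraries the order of means was Cdkn1c, Peg3, Igf2r, Meg3, Igf2, Grb10, H19, Mest, Plagl1 and Dlk1. Neighbours whose library ranges overlapped there were Peg3 and Igf2r, Meg3 and Igf2, Igf2 and Grb10, H19 and Mest, and Plagl1 and Dlk1. In the knockout libraries H19 came before Cdkn1c, Peg3, Igf2r, Meg3, Grb10, Igf2, Mest, Plagl1 and Dlk1. The ranges of H19 and Cdkn1c, of Cdkn1c and Peg3, and of Peg3 and Igf2r overlapped in the knockout. H19 thus moved from the seventh place to the top of the list, and Igf2 from the fifth to the seventh.

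The wildtype libraries also differed among themselves, and the spread of each member was set against that of Acta1, the skeletal muscle actin. It was at 46.5, 56.95 and 8.54 RPKM in wildtype replicates 1, 2 and 3, a ratio of highest to lowest of 6.67, and at 425, 424 and 342 RPKM in knockout replicates 1, 2 and 3. Wildtype replicate 3 was also the lowest wildtype library for all 20 muscle markers. Of the 20, 19 were at least 2 times lower there than in both other wildtype libraries, as were 164 of all tested genes. The median ratio of highest to lowest over tested genes was 1.21, and 59 tested genes spread at least as widely as Acta1.

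All 10 members spread less than Acta1 among the wildtype libraries. Peg3 had the widest ratio, 2.97, because of wildtype replicate 2, and H19 followed with 2.79. Dlk1 had a ratio of 2.27, Mest 1.85 and Igf2 1.57. Cdkn1c, Meg3, Grb10, Plagl1 and Igf2r lay between 1.09 and 1.35. In the knockout libraries the ratios were smaller for most members, 1.40 for H19 and 1.05 for Igf2.

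**Figure D3:**
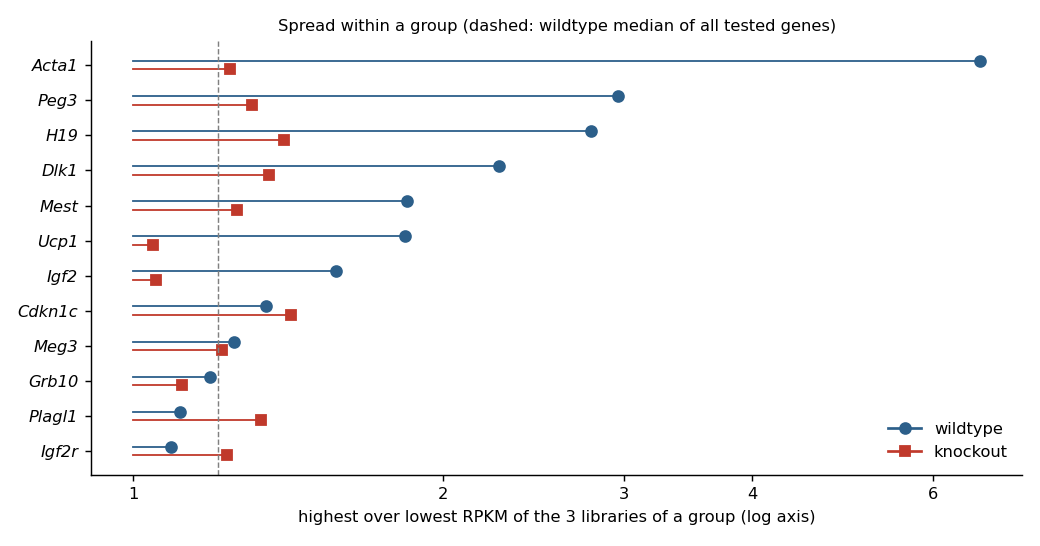
Highest over lowest RPKM among the 3 libraries of each group, on a log axis, for the 10 members with Acta1 and Ucp1; circles are wildtype, squares knockout, and the dashed line is the wildtype median of all tested genes, 1.21. Acta1 reaches 6.67 in the wildtype, and Peg3, H19 and Dlk1 are the members with the widest wildtype spread.

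The order of the wildtype libraries also differed between members. H19 was highest in replicate 2, then 1, then 3, the order shown by Acta1 and by 18 of the 20 muscle markers. Grb10 had that order as well, within a narrow range. Among all tested genes 18.0% had it. Igf2, Dlk1 and Peg3 were highest in replicate 3, then 1, then 2, the order of Ucp1, which 21.8% of tested genes showed. With 3 libraries in a group, an order carries little information.

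Expressed per unit of Acta1, H19 was not higher in the knockout libraries. Per 100 RPKM of Acta1, H19 amounted to 4.72, 3.56 and 4.18 RPKM in knockout replicates 1, 2 and 3, and to 4.08, 4.84 and 11.6 RPKM in wildtype replicates 1, 2 and 3. The knockout values and wildtype replicates 1 and 2 lay in a common range, and wildtype replicate 3, which held the least Acta1, lay above it. Igf2 amounted to 0.569, 0.542 and 0.698 RPKM per 100 RPKM of Acta1 in the knockout and to 9.88, 5.80 and 60.9 RPKM in the wildtype. Acta1 and H19 were both higher in the knockout, and both were lowest in wildtype replicate 3. They did not move in proportion there. Wildtype replicates 1 and 2 held 5.44 and 6.67 times the Acta1 of replicate 3, but 1.92 and 2.79 times its H19. The part of muscle RNA in the difference of H19 or Igf2 was not tested. In bulk tissue a change in the number of cells of a type and a change in RNA per cell cannot be told apart.

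**Figure D4:**
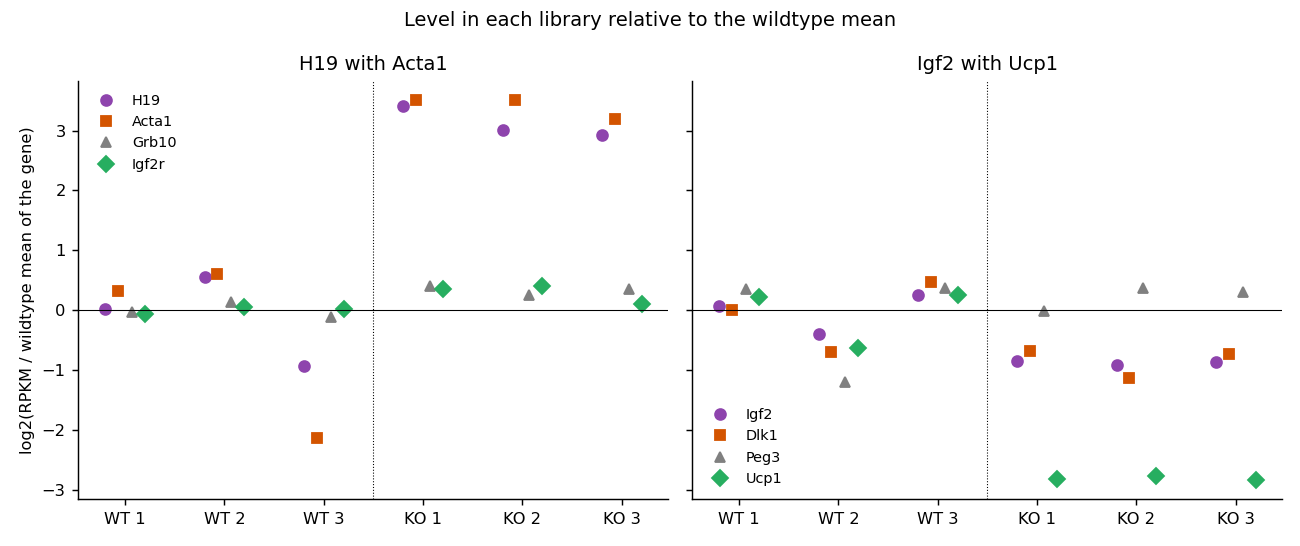
Level in each library as log2 of RPKM over the gene's own wildtype mean, for H19, Acta1, Grb10 and Igf2r on the left and for Igf2, Dlk1, Peg3 and Ucp1 on the right; WT and KO give the group and replicate number, and 0 is the wildtype mean. H19 and Acta1 are both lowest in WT 3 and lie far above 0 in the knockout, while Igf2 and Dlk1 lie below 0 in all 3 knockout libraries.

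Markers of satellite cells and of regenerating muscle, which could also hold H19, were mostly near 0. Of 13 such genes, 11 had a mean under 1 RPKM in both groups, and Pax7, Chrng and Mymk (Tmem8c in the table) were listed at 0 in all libraries. The summed level of the list was 52.8 to 66.2 RPKM in the knockout and 23.9 to 32.3 RPKM in the wildtype. Most of it was Des, at 50.5 to 62.9 RPKM in the knockout and 23.7 to 31.4 RPKM in the wildtype. The sum therefore says little about the other genes of the list. Of the genes not tested, Myod1, Myog, Myh3, Chrna1 and Cdh15 had every knockout library above every wildtype library. For Myh3 the nearest values were 0.0106 RPKM in knockout replicate 2 and 0.0103 RPKM in wildtype replicate 2, too close to read as a difference. The read numbers behind the low values of these genes were not recovered. For Myf5, Myh8 and Ncam1 the groups overlapped. The groups did not overlap for 29.4% of all tested genes, a share that does not cover genes below the tested level. Of the tested genes, Des, the muscle intermediate filament desmin, rose by a log2 change of 0.96 (SE 0.12, limma adjusted p = 0.00217). Myf6, a regulator of muscle fibre genes, rose by 1.16 (SE 0.16, limma adjusted p = 0.00276). Its mean was 1.77 RPKM in the knockout and 0.246 RPKM in the wildtype. Myf6 was thus tested only because of its knockout level, and its direction is not independent of that filter.

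Preadipocytes and fibroblasts, which can express Dlk1, Igf2 and H19, were followed by 12 markers. Of the 11 tested, Thy1 and Col3a1 rose and 9 did not pass. The share called was 18.2%, against 7.75% of all tested genes. An unadjusted p under 0.05 in limma was found for 4 of the 11, and for 2724 of all 11541 tested genes. All 11 were fitted higher in the knockout, with a median log2 change of 0.24, against 0.076 over all tested genes. The summed level was 233 to 271 RPKM in the knockout and 187 to 239 RPKM in the wildtype, so the ranges met. Of 11 macrophage markers, 1 (Mpeg1) rose and 10 did not pass, a share called of 9.09%, with sums of 78.6 to 108 RPKM against 49.5 to 78.0 RPKM. Of the 11, 8 had an unadjusted p under 0.05 and 10 were fitted higher in the knockout, with a median log2 change of 0.41. No marker of endothelium (10 tested, 1 at an unadjusted p under 0.05), pericytes and smooth muscle (10 tested, 0 at an unadjusted p under 0.05) or nerve and glia (3 tested, 0 at an unadjusted p under 0.05) passed in limma. The part of any of these cells in the values of the members was not tested.

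Among the genes whose levels were most like those of H19 over the 6 libraries were Ttn, Slc35c2, Ryr1 and Bin1, each with a Pearson correlation of log2(RPKM + 1) of 0.999. Ttn, the giant sarcomere protein titin, was at 4.23 ± 0.517 RPKM in the knockout and 0.461 ± 0.324 RPKM in the wildtype (SD, n = 3 each). Ryr1 is the calcium release channel of muscle. The correlation of H19 was 0.970 with Acta1 and -0.987 with Ucp1. These values are descriptions over 6 libraries that fall into 2 groups, and most of each correlation is the difference between the groups.

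For Igf2 the most similar genes were Hspa8 (0.995), Rbck1 (0.991), Anp32e (0.984), Rassf9 (0.983) and Maob (0.979). Hspa8, a constitutive heat shock chaperone, was at 44.3 ± 1.11 RPKM in the knockout and 71.6 ± 13.1 RPKM in the wildtype (SD, n = 3 each). Maob, a mitochondrial monoamine oxidase, was at 35.3 ± 0.638 and 43.0 ± 3.41 RPKM (SD, n = 3 each). The correlation of Igf2 was 0.967 with Ucp1, -0.960 with Acta1 and -0.956 with H19, over the same 6 libraries in 2 groups.

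A neighbour of H19, the noncoding RNA Nctc1, was singled out after its values were seen. It was at 1.30, 0.873 and 0.790 RPKM in knockout replicates 1, 2 and 3, and at 0.116, 0.0585 and 0 RPKM in wildtype replicates 1, 2 and 3. The groups did not overlap, and replicate 1 was the highest in both. Its mean of 0.989 RPKM in the knockout was just below the level at which genes were tested. Ins2, another neighbour, was listed at 0 in all libraries.

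Of 66 other imprinted genes, 62 are in the table and 29 were tested. Of these, 2 rose, 0 fell and 27 did not pass. The 2 calls are 6.9% of the tested genes of the list, near the 7.75% called over all tested genes. The median log2 change was 0.13, against 0.076 over all tested genes. Ndn, necdin, a growth suppressor of the Prader-Willi domain, rose from 15.6 ± 2.79 to 25.05 ± 3.24 RPKM (SD, n = 3 each). Its log2 change was 0.66 (SE 0.14, limma adjusted p = 0.0229). Blcap, a small membrane protein gene that has the imprinted gene Nnat inside an intron, rose from 27.5 ± 0.239 to 34.5 ± 1.30 RPKM (SD, n = 3 each), with a log2 change of 0.32 (SE 0.066, limma adjusted p = 0.0242). Neither passed when the libraries were rescaled by median-of-ratios, or without knockout replicate 1 or 2 or without wildtype replicate 1. Blcap also missed the threshold without knockout replicate 3 or wildtype replicate 3 and with the replicate number as a block, and Ndn with no filter on low values.

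Nnat itself had the largest log2 change among the tested genes of that list, 1.23 (SE 0.35), and was named for it after its values were seen. It was at 8.66, 8.62 and 14.8 RPKM in knockout replicates 1, 2 and 3, and at 2.60, 7.94 and 2.55 RPKM in wildtype replicates 1, 2 and 3. Wildtype replicate 2 lay close to the knockout values, and the gene did not pass (limma adjusted p = 0.076), but was called without wildtype replicate 2. Reads of Nnat and Blcap cannot be told apart where their transcripts overlap.

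Around IGF2 signalling, 18 of 28 pathway genes were tested, of which 1 rose, 0 fell and 17 did not pass. The share called was 5.56%, against 7.75% of all tested genes. The median log2 change was 0.11. Igf2bp2, an RNA-binding protein that binds the Igf2 messenger, was at 2.11, 2.39 and 2.33 RPKM in knockout replicates 1, 2 and 3, and at 1.02, 0.995 and 1.31 RPKM in wildtype replicates 1, 2 and 3. It rose by a log2 change of 0.64 (SE 0.096, limma adjusted p = 0.00515), and the call held in all 12 alternatives that tested it. Igf1, the growth factor related to Igf2, was at 7.09 ± 2.66 RPKM in the knockout and 6.46 ± 0.444 RPKM in the wildtype, and the receptor Igf1r was at 1.60 ± 0.0975 and 1.49 ± 0.130 RPKM (SD, n = 3 each). Grb14, the closest relative of Grb10 on the list, was at 20.3 ± 2.67 and 13.7 ± 3.62 RPKM (SD, n = 3 each) and did not pass (limma adjusted p = 0.085), but was called without wildtype replicate 3.

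None of the 13 tested genes of the DLK1 and Notch list passed in limma. An unadjusted p under 0.05 was found for 2724 of all 11541 tested genes and for 2 of the 13. The smallest p belonged to Hes1, a repressor downstream of Notch, at 7.15 ± 0.499 RPKM in the knockout and 5.15 ± 0.796 RPKM in the wildtype (SD, n = 3 each, limma adjusted p = 0.0504), and it was called without wildtype replicate 3. None of 5 tested relatives of Cdkn1c and Plagl1 passed, with 1 at an unadjusted p under 0.05. That gene was Cdkn1a, the kinase inhibitor p21, at 84.5 ± 11.1 RPKM in the knockout and 55.8 ± 19.2 RPKM in the wildtype (SD, n = 3 each, limma adjusted p = 0.11). It was called without wildtype replicate 1.

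None of 13 tested genes that keep or remove imprints passed in limma. An unadjusted p under 0.05 was found for 2724 of all 11541 tested genes and for 1 of these 13. That was Dnmt3a, a DNA methyltransferase, at 3.80 ± 0.395 RPKM in the knockout and 3.03 ± 0.158 RPKM in the wildtype (SD, n = 3 each, limma adjusted p = 0.133). Ctcf, the insulator protein that binds between H19 and Igf2, was at 10.2 ± 0.435 and 9.64 ± 0.121 RPKM (SD, n = 3 each). Ctcf did not pass either.

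**Figure D5:**
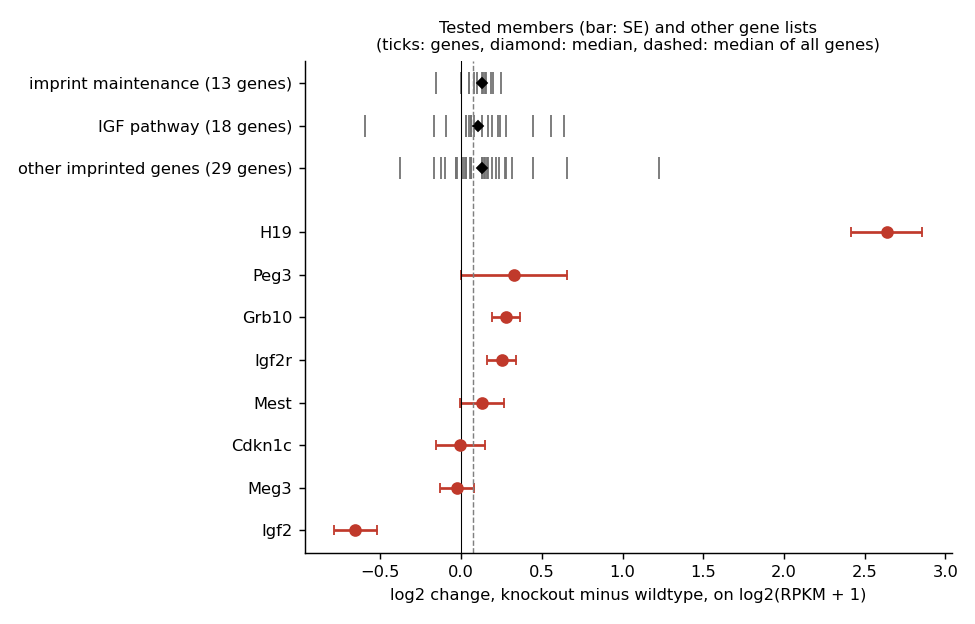
Log2 change, knockout minus wildtype on log2(RPKM + 1), of the 8 tested members with standard errors (red), and of the genes of 3 other lists as ticks with the list median as a diamond; the dashed line is the median of all tested genes, 0.076. H19 lies at 2.64 and Igf2 at -0.65, while the medians of the other lists lie between 0.11 and 0.13.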

How the data were processed

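Brown fat RNA of 3 knockout and 3 wildtype libraries was sequenced; per the labels' protocols the kit was TruSeq RNA Sample Prep v2. CASAVA and bcl2fastq are named in the submitters' processing notes, while the sources used here do not name the aligner, build or annotation. The authors deposited RPKM values for 168326 transcript rows, written with decimal commas and with no unit in the header. Multiplied by transcript length, 95.8% to 96.1% of low values in each library fell within 0.1 of whole reads, which gave the depth. Rows without a gene identifier (13.8%) were left out. A single row was kept per gene, RefSeq rows first and then the highest mean.

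Values were compared as log2(RPKM + 1) with limma 3.58.1 in R 4.3.3 (intensity trend, genotype as the only factor) over genes whose mean reached 1 RPKM in the knockout or the wildtype. P-values are two-sided and Benjamini-Hochberg adjusted over 11541 genes, with a threshold of 0.05. The fit was run on simulated counts with the same spread setting for every gene and equal odds of a rise or a fall. These data differ in both respects, so the simulation gives no error rate for them. The gene lists and members were chosen with earlier results of these data known. Named genes are all members, up to 3 called genes per list with the smallest adjusted p (every called one of the other imprinted genes; the 1 with the smallest p where none passed), the 5 genes most correlated with H19 and with Igf2, Acta1 and Ucp1. A gene that the rule takes for H19 is not reported here. Rian, Airn, Nctc1, Ins2, Nnat, Igf1, Igf1r, Grb14 and Ctcf were added for their place or role. Alternatives changed the scaling, pseudocount, filter, rows, trend, replicate block and libraries. Replicates were not copies of each other: 2 genes held identical values above 0 in wildtype replicates 2 and 3, and 0 in every other pair.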

Additional observations from a re-analysis of the deposited data

How the results depend on the processing

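RPKM gives no read number for most rows, so counting error is known only for the rows whose reads are given, and Dlk1 and Plagl1 rest on few reads. Of the 894 genes called, 90.4% were higher in the knockout (808 higher, 86 lower). Median-of-ratios scaling moved the median log2 change of all genes from 0.076 to -0.02 and the calls to 470 higher and 178 lower, 72.5% higher, with 0 calls among other imprinted genes. A filter at a mean of 5 RPKM left 452 calls among all genes, 1 among the members (H19) and 0 in the IGF pathway, fewer genes being tested. With no filter on low values there was 1 call among the members, 5 among other imprinted genes and 2 in the IGF pathway. Summing all rows of a gene gave 5 calls among other imprinted genes and 2 in the IGF pathway, where Stc2 joined Igf2bp2.

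The replicate block, with the replicate number as a factor, gave 778 calls among all genes, 1 among other imprinted genes (Ndn) and 2 in the IGF pathway (Igf2bp2 and Pik3r1), and changed no other list's count by over 1.5 times. Same-numbered libraries shared little: the correlations of their deviations were 0.089, 0.038 and -0.018, so the numbers are not taken as a pairing.

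Leaving out 1 library at a time gave 457 to 850 calls among all genes, 1 to 2 among the members, 0 to 3 among other imprinted genes, 1 to 2 in the IGF pathway, 0 to 1 in the DLK1 and Notch list and 0 to 1 among relatives of Cdkn1c and Plagl1. The lowest counts for all genes, 457 and 477, came without knockout replicate 2 and without knockout replicate 1. The muscle list had 20 calls in every alternative run except the filter at a mean of 5 RPKM, where Ttn was not tested and all 19 tested genes were called; the imprint maintenance list had 0 calls in every alternative run. The log2 change of H19 ranged from 2.39 to 3.16 and that of Igf2 from -0.83 to -0.54. The causes of these differences were not tested.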

Other observations

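Of the other imprinted genes in the table, 33 were below the tested level. Among these the groups did not overlap for Nctc1, Slc38a4, Cobl, Cdh15, Begain and Peg10 only, which are named after their values were seen. Over all tested genes the share without overlap was 29.4%, but those genes reached a mean of 1 RPKM, so it is no background for genes this low. The read numbers behind these low values were not recovered. Slc38a4, an amino acid transporter, was at 0.868 ± 0.225 RPKM in the knockout and 0.125 ± 0.0719 RPKM in the wildtype (SD, n = 3 each). Cobl, an actin nucleator next to Grb10, was at 0.270 ± 0.0563 and 0.0437 ± 0.0217 RPKM (SD, n = 3 each). Cdh15, also on the satellite cell list, was at 0.172 ± 0.0637 and 0.00722 ± 0.0125 RPKM (SD, n = 3 each). Begain was at 0.333 ± 0.0151 and 0.257 ± 0.0338 RPKM (SD, n = 3 each). Peg10, a retrotransposon-derived gene, was lower in the knockout, at 0.214 ± 0.0523 against 0.320 ± 0.0530 RPKM (SD, n = 3 each).

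Gnas, which encodes the stimulatory G protein subunit and was the most abundant gene among the other imprinted ones, was at 1838, 1749 and 1776 RPKM in knockout replicates 1, 2 and 3, and at 1733, 978 and 1889 RPKM in wildtype replicates 1, 2 and 3. Wildtype replicate 2 was the lowest, as it was for Peg3 and Ucp1.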
